A study of Mus musculus with 36 samples.

Results

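Gm48199, Gm61393 and Pard3bos3, which are long noncoding RNA genes, and Tpte, which codes for a protein, were followed through liver, kidney and heart of young male mice. These 4 of the 78239 genes counted were chosen by their measured change in liver. At 12 against 8 weeks, each differed by more than 1 on the log2 scale with edgeR's adjusted p below 0.05, as did 0.0886% of the 14672 genes kept by the count filter in liver. Their symbols were matched to the gene identifiers of the count tables, and each symbol belonged to 1 identifier. Because the liver values chose the genes, the changes in liver are given as a description without a test. Tests are given for kidney, for heart against kidney and for neighbouring genes. The genes fitted between heart and kidney passed the count filter through kidney alone, so nothing is read from that test.

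RNA was sequenced from wild-type (WT) mice of the inbred substrain C57BL/6NCrl, killed when they were 8, 10 or 12 weeks old. The mice were males bought at an earlier age and allotted at random to an age, and no treatment or altered allele was involved. For heart, kidney and liver there were 4 libraries at each age, which makes 9 groups and 36 libraries of polyadenylated RNA, and the labels call the 4 biological replicates. Depth reached from 21031599 to 33637390 read pairs counted on genes per library. Summed over 5 hepatocyte genes, the liver libraries held at least 73188.6 CPM, the count scaled to a common total of counted pairs, against at most 218.6 CPM in kidney and 22.3 CPM in heart, and the kidney and heart lists were likewise highest in their own tissue. Levels below are CPM without further scaling, and fold changes come from edgeR's fit with TMM factors, which correct for the composition of the libraries. These are whole pieces of tissue, in which fewer cells of a type and less RNA per cell cannot be told apart.

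Long noncoding RNAs are transcripts that do not code for a protein. Many are found in a single tissue, are present at few copies and lie close to, or on the opposite strand of, a protein-coding gene. An RNA on the opposite strand is called antisense. In the liver, the activity of many genes of hepatocytes still changes after weaning, as the organ takes on its adult metabolism and its sex-dependent programme. Tpte codes for a membrane-spanning protein with a phosphatase-like part and is best known from the testis.

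Gm48199 (ENSMUSG00000113399) lies on the plus strand at chr13:52334190-52337367 of GRCm39, and its 10 annotated transcripts cover 2523 exon bases. Gm61393 (ENSMUSG00000138893) lies on the minus strand at chr13:52339117-52342387 and has 1 transcript with exons of 465 and 1133 bases. The genes therefore face each other, with 1749 bases between their ends and 8197 bases between their start sites. Pard3bos3 (ENSMUSG00000085400) lies on the minus strand at chr1:62495884-62538420, inside Pard3b on the opposite strand, and its exons of 170 and 692 bases are separated by an intron of 41675 bases. None of its exon bases falls on an exon of Pard3b, 1 of whose exons lies in this intron. Tpte (ENSMUSG00000031481) is the one protein-coding gene and spans 87978 bases on the plus strand at chr8:22773457-22861434.

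**Figure D1:**
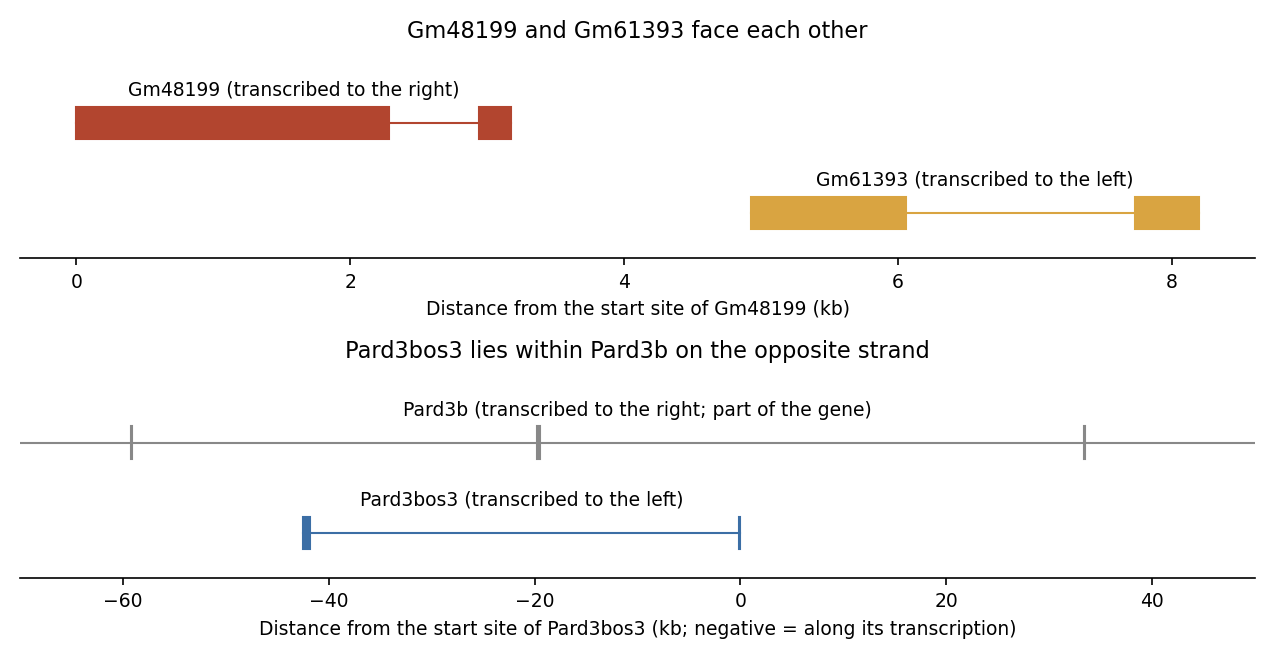
Maps of the noncoding genes, to scale within each panel, with the distance in kilobases from the start site of Gm48199 (top) or of Pard3bos3 (bottom) on the x axis. Boxes are exons and lines are introns; Gm48199 and Gm61393 point at each other across a gap of 1749 bases, and both exons of Pard3bos3 miss the exons of Pard3b, of which only a part is drawn.

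The 250 bases before the start sites of Gm61393 and of Tpte are shown. The levels of both genes fall in liver, as does that of Gm48199, whose window is not shown. They were read from the genome GRCm39 on the strand of each gene, at chr13:52342388-52342637 (minus strand) for Gm61393 and at chr8:22773207-22773456 for Tpte.
Gm61393: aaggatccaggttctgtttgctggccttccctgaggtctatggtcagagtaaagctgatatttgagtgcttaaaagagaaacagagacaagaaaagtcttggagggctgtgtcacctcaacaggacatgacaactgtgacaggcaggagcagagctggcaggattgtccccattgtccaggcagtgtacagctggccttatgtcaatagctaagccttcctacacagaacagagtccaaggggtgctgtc
Tpte: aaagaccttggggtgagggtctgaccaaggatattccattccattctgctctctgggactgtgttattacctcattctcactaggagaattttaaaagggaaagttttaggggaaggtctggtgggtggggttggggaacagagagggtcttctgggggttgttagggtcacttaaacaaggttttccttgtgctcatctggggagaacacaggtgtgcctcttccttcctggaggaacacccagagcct
GC content was 49.6% in each of these windows. In the windows of Gm48199 and Pard3bos3, which are not shown, it was 46% and 37.2%.

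For Pard3bos3 the first exon is shown instead, since its pairs are counted on Pard3bos3 and not on Pard3b, at chr1:62538251-62538420 (minus strand of GRCm39).
Pard3bos3 exon 1: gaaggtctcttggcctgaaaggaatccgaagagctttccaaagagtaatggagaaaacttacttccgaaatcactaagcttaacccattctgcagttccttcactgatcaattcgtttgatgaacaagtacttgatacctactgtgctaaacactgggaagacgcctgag
As the libraries carry no strand, pairs from unspliced Pard3b RNA on these exons cannot be told apart from those of Pard3bos3. In heart, the mean level of Pard3b was 17.6 CPM (18.1 in kidney) while Pard3bos3 had no pair in any heart library. The limit of strand also holds where genes face each other, as Gm48199 faces Gm61393 and the neighbouring gene Slc25a15 faces Tpte. Pairs from RNA running past the end of one onto exons of the other would be counted there, which was not tested. Pairs that match several places equally well were not counted, so copies elsewhere could lower a level. Stretches of at least 100 bases with at least 90% identity to transcripts of other genes were found in Gm48199, where the longest was 280 bases at 90.7% identity with Or10a5, and in Gm61393, where it was 107 bases at 90.7% with Ptgs2os. Neither Pard3bos3 nor Tpte had any, the 4 genes shared none among themselves, and no stretch of 150 bases at 98% identity was found.

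Gm48199 was the most abundant of the 4 in liver and fell with age. Its counts in the 4 libraries at 8 weeks were 417, 938, 498 and 641, which are 17.0, 33.2, 23.7 and 28.3 CPM. At 10 weeks the counts were 228, 553, 79 and 496, or 9.54, 16.4, 3.35 and 16.2 CPM. At 12 weeks they were 54, 93, 122 and 184, or 1.82, 3.42, 4.26 and 6.81 CPM. Every library at 10 and at 12 weeks was below every library at 8 weeks, as was the case for 3.22% and 3.95% of the genes kept, whereas replicate 3 at 10 weeks lay within the range of the 12-week libraries. The means were 25.5 ± 6.92, 11.4 ± 6.23 and 4.08 ± 2.08 CPM (SD, n = 4 each), and the log2 fold change at 12 against 8 weeks was -2.62 with a standard error of 0.47, a 6.16-fold lower level. At 10 against 8 weeks it was -1.21 and at 12 against 10 weeks -1.42, so both intervals contributed to the fall.

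Gm61393 fell in the same libraries from a lower level. At 8 weeks its counts were 46, 122, 44 and 59, or 1.87, 4.32, 2.09 and 2.61 CPM. At 10 weeks they were 29, 46, 6 and 44, or 1.21, 1.37, 0.254 and 1.43 CPM. At 12 weeks 8, 8, 9 and 8 pairs were counted, or 0.270, 0.294, 0.314 and 0.296 CPM. Again the 8-week libraries stood above all others, as for 3.22% of the genes kept at 10 weeks and 3.95% at 12 weeks. Replicate 3 at 10 weeks was below every 12-week library. The means were 2.72 ± 1.11, 1.07 ± 0.550 and 0.293 ± 0.0182 CPM (SD, n = 4 each). The log2 fold change at 12 against 8 weeks was -3.17 (standard error 0.46), or 8.97-fold lower, and it was -1.38 at 10 against 8 weeks and -1.79 at 12 against 10 weeks. With 33 pairs in all at 12 weeks, the summed level there has a 95% Poisson interval of 0.202 to 0.412 CPM, which covers counting error only.

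Tpte also fell in liver. The 8-week counts were 78, 92, 55 and 57, or 3.17, 3.26, 2.62 and 2.52 CPM. The 10-week counts were 48, 32, 35 and 38, or 2.01, 0.951, 1.48 and 1.24 CPM, and the 12-week counts were 21, 18, 26 and 32, or 0.708, 0.662, 0.907 and 1.18 CPM. The 8-week libraries lay above all those at 10 and 12 weeks, as for 3.22% and 3.95% of the genes kept. The later ages overlapped in 1 library of the 12-week group. Mean levels were 2.89 ± 0.378, 1.42 ± 0.449 and 0.865 ± 0.238 CPM (SD, n = 4 each). The log2 fold change was -1.70 (standard error 0.25) at 12 against 8 weeks, or 3.26-fold lower, -1.09 at 10 against 8 weeks and -0.62 at 12 against 10 weeks.

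Pard3bos3 moved the other way and rose from a level near the limit of detection. In the 8-week livers 3, 2, 3 and 6 pairs were counted, or 0.122, 0.0708, 0.143 and 0.265 CPM. At 10 weeks there were 21, 17, 17 and 14 pairs, or 0.879, 0.505, 0.720 and 0.456 CPM, and at 12 weeks 27, 25, 44 and 12 pairs, or 0.910, 0.919, 1.53 and 0.444 CPM. All libraries of the later ages were above all those at 8 weeks, as for 6.07% of the genes kept at 10 weeks and 3.48% at 12 weeks, and replicate 4 at 12 weeks was below every library at 10 weeks. Means were 0.150 ± 0.0824, 0.640 ± 0.196 and 0.952 ± 0.447 CPM (SD, n = 4 each). The summed level at 8 weeks rests on 14 pairs, with a 95% Poisson interval of 0.0793 to 0.243 CPM for counting error. The log2 fold change was 2.69 (standard error 0.49) at 12 against 8 weeks, or 6.44-fold higher, with 2.02 at 10 against 8 weeks and 0.67 at 12 against 10 weeks, so most of the rise lay before 10 weeks.

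**Figure D2:**
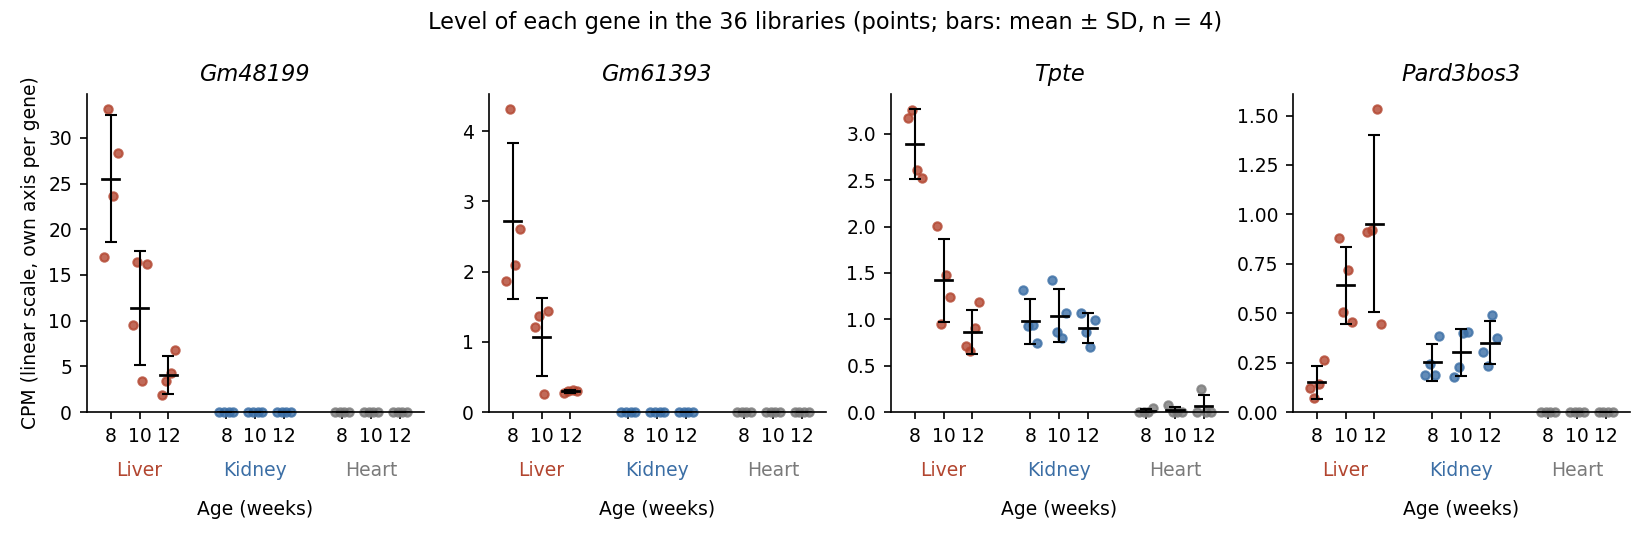
Level of each gene in CPM (y axis, linear, a separate scale for each gene) by age in weeks in liver, kidney and heart (x axis). Points are the 36 libraries, and bars show the mean ± SD of 4; in liver Gm48199, Gm61393 and Tpte fall and Pard3bos3 rises, while kidney and heart libraries of Gm48199 and Gm61393 all sit at 0.

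By the rule that chose them all 4 genes were called at 12 against 8 weeks in liver. Of all genes kept, 13 were called, 3 lower (0.0204%) and 10 higher (0.0682%) at 12 weeks. The 3 called lower were Gm48199, Gm61393 and Tpte themselves. With a single library left out, 0 to 4 of the genes were called, 0 without replicate 2 at 8 weeks or replicate 1, 2 or 3 at 12 weeks, and limma-voom called 2. At 10 against 8 weeks, with 0.0136% of genes called, and at 12 against 10 weeks, with 0.0273%, none of the 4 was. Only 2 genes had a lower log2 fold change at 12 against 8 weeks than Gm61393, 7 than Gm48199 and 36 than Tpte, and 18 had a higher one than Pard3bos3. Near the threshold, Gm48199, Pard3bos3 and Gm66978 (log2 fold change 1.00) were just inside with adjusted p-values of 0.0413, 0.0414 and 0.0414 from edgeR, and Smim36, Trhde and Mtcl2 (1.07, 2.96 and -1.24) were just outside at 0.0512 each. For Gm48199 and Pard3bos3 these values chose the genes, so they show only how close the threshold was. Of 1726 long noncoding RNA genes kept, 0.232% were called, 2 in each direction, and only 1 of these is not among the genes described here. Their median log2 fold change was -0.05, against -0.00 over all genes. The 4 calls among them became 29 with DESeq2, 1 with limma-voom and 0 to 6 with a library left out.

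**Figure D3:**
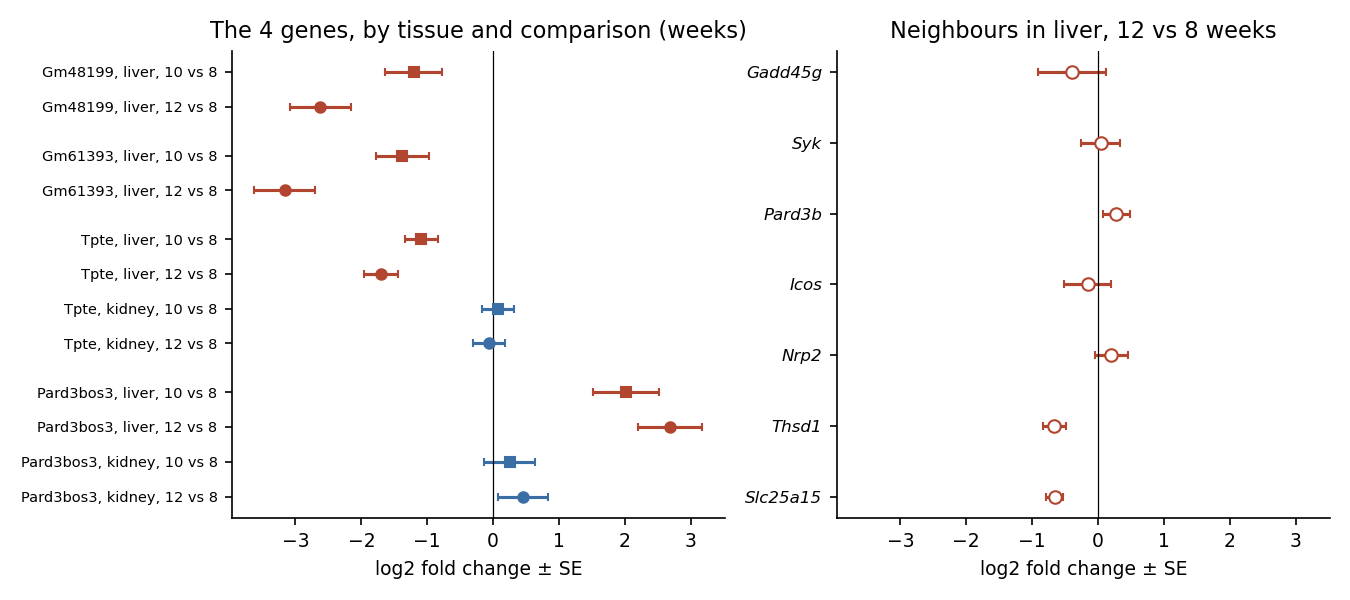
Log2 fold change between ages (x axis) with its standard error (bars) from edgeR's fit, 4 libraries per age, for the 4 genes in liver (red) and, where they could be fitted, in kidney (blue), and at the right for their neighbours in liver. Squares compare 10 and circles 12 weeks with 8 weeks; the liver values of the 4 genes lie between -3.17 and 2.69, while kidney values stay between -0.06 and 0.46 and neighbours between -0.66 and 0.28.

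Compared per length of exon, the order of the 4 genes in liver was not the same at each age. At 8 weeks Gm48199 reached 10.1 CPM per kilobase, Gm61393 1.70, Tpte 1.05 and Pard3bos3 0.174. At 12 weeks the levels were 1.62 CPM per kilobase for Gm48199, 1.10 for Pard3bos3, 0.314 for Tpte and 0.184 for Gm61393. Pard3bos3 was thus last at 8 weeks and second at 12 weeks. The exon lengths are those of the annotation and not of the transcripts used in these livers.

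The levels of the facing genes moved together over the 12 livers as a whole, but not within the 12-week group. Across the 12 livers the count of Gm48199 was between 6.75 and 23 times that of Gm61393, with a median ratio of 11.3. The Pearson correlation of their log2 CPM was 0.95, and 0.81 after the mean of each age had been taken out, where the points share library and depth. Within the 8-week group replicate 2 was the highest for both genes and replicate 1 the lowest, and within the 10-week group replicate 3 was the lowest for both. Within the 12-week group Gm48199 ranged from 1.82 to 6.81 CPM, while Gm61393 stayed between 0.270 and 0.314 CPM on 8 or 9 pairs a library. As the counts carry no strand, the levels of the facing genes cannot be taken as fully separate measurements. Tpte correlated with Gm61393 at 0.80 and with Gm48199 at 0.78, but at -0.10 and 0.02 once the age means were out. Pard3bos3 stood at -0.80 with both facing genes and -0.82 with Tpte, and at -0.19 (Gm61393), -0.32 (Gm48199) and -0.04 (Tpte) without the age means.

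**Figure D4:**
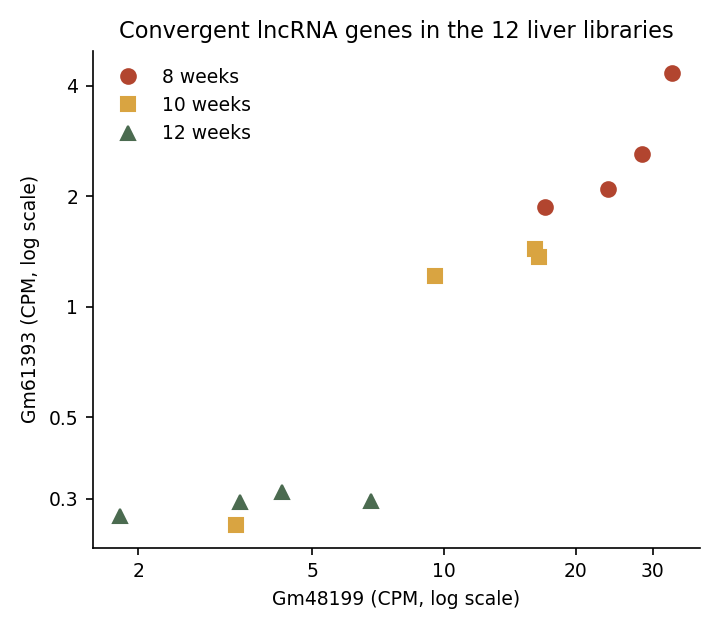
Level of Gm61393 (y axis) against that of Gm48199 (x axis) in the 12 liver libraries, both in CPM on log scales, with a symbol for each age. The 8-week livers lie at the upper right, and the 10-week library at the lower left among those of 12 weeks is replicate 3 at 0.254 CPM of Gm61393 and 3.35 CPM of Gm48199.

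Outside the liver the facing genes were not detected. In all 24 kidney and heart libraries the count of both was 0. With a count of 3 over the summed pairs of a tissue taken as the floor, the floor is 0.00904 CPM in kidney and 0.00977 CPM in heart. Against it, Gm48199 summed over all ages was at least 1484-fold higher in liver than in kidney and at least 1373-fold higher than in heart. For Gm61393 the bounds were 148-fold and 137-fold. The bounds are smaller at 12 weeks, where the summed liver levels were 4.02 CPM for Gm48199 and 0.293 CPM for Gm61393. The floors of the 12-week groups were 0.0258 CPM in kidney and 0.0281 CPM in heart. Of the genes kept in liver, 0.675% had a count of 0 in all kidney and heart libraries, and among long noncoding RNA genes the share was 3.53%, or 61 genes.

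Tpte was present in kidney at levels that did not follow age. The kidney counts were 28, 23, 30 and 23 at 8 weeks, 32, 23, 24 and 29 at 10 weeks and 35, 26, 17 and 29 at 12 weeks. The ages overlapped throughout, with means of 0.979 ± 0.240, 1.04 ± 0.282 and 0.905 ± 0.163 CPM (SD, n = 4 each). edgeR's quasi-likelihood test gave a log2 fold change of -0.06 at 12 against 8 weeks (95% interval -0.55 to 0.42, adjusted p = 0.949), 0.07 at 10 against 8 weeks (-0.41 to 0.56, adjusted p = 0.923) and -0.14 at 12 against 10 weeks (-0.62 to 0.34, adjusted p = 0.8294). In each of these comparisons the sign turned when single kidney libraries were left out. In order of the mean, the liver at 8 weeks stood highest and apart from all other groups. The 10-week liver, the kidney at 10, 8 and 12 weeks and the 12-week liver followed, each overlapping the next. The 12-week liver, at 0.865 CPM, thus came below the 3 kidney groups without standing apart from them.

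In heart Tpte was nearly absent. A single pair was counted in replicate 4 at 8 weeks, 2 pairs in replicate 1 at 10 weeks and 7 pairs in replicate 2 at 12 weeks, and the other 9 heart libraries had none. The gene was below the count filter there. With 1 library above 0 at each age, the outcome of an exact permutation test between ages in heart was fixed in advance, so nothing is read from it. Tpte entered the fit of heart and kidney through its kidney counts alone, so nothing is read from the adjusted p given here. Between tissues, the heart level was 24.2-fold below the kidney level (-4.60 ± 0.45 on the log2 scale, SE, with an adjusted p of 1.31e-10 in edgeR). The size rests on a few heart pairs: the log2 fold change was -5.98 without replicate 2 of the 12-week hearts, -5.49 without replicate 1 of the 10-week hearts and -5.21 without replicate 4 of the 8-week hearts. Each of these leaves an age with no pair in any heart library, where the fitted value depends on the small count that edgeR adds.

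Pard3bos3 was found in kidney and not in heart. The kidney counts were 4, 6, 6 and 12 at 8 weeks, 4, 6, 12 and 11 at 10 weeks and 10, 7, 12 and 11 at 12 weeks. The groups overlapped, and their means were 0.251 ± 0.0939, 0.302 ± 0.118 and 0.352 ± 0.1103 CPM (SD, n = 4 each). The log2 fold change of 0.46 at 12 against 8 weeks (95% interval -0.29 to 1.20) did not pass edgeR's test (adjusted p = 0.684), nor did 0.25 at 10 against 8 weeks (-0.52 to 1.02, adjusted p = 0.804) or 0.21 at 12 against 10 weeks (-0.52 to 0.93, adjusted p = 0.8289). At these counts the interval still holds a rise of 2-fold between 8 and 12 weeks. In kidney the gene passed the count filter only through the 12-week group, where its mean was highest, so nothing is read from these tests. All heart libraries had a count of 0. Against the floor of 3 counts in heart, the levels summed over all ages were 31.1-fold higher in kidney and 60.9-fold higher in liver. In liver the summed level was 0.145 CPM at 8 weeks, against 0.595 CPM over all ages. The 12-week and 10-week livers stood first in order, then the kidney at 12, 10 and 8 weeks and the 8-week liver, with each group overlapping the next, and heart stood apart at 0.

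In kidney, Tpte and Pard3bos3 were tested between ages and neither was called, where 0.0283% of all genes were called at 12 against 8 weeks, 0.142% at 10 against 8 weeks and 0.0567% at 12 against 10 weeks. Pard3bos3 was kept in kidney through its 12-week counts alone, so its tests there are not read. Gm48199 and Gm61393 in kidney and all 4 genes in heart were below the count filter and had no edgeR test between ages. Between heart and kidney 53.3% of genes were called, 31.3% as lower in heart. Tpte and Pard3bos3 were called there, but both entered that fit through their kidney counts alone, and Pard3bos3 only with a mean count of 10 in the 12-week kidneys, so nothing is read from this count. Whether the change with age differs between liver and kidney was not tested, because the liver change chose the genes.

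The protein-coding genes around them were tested in liver at 12 against 8 weeks, and none of the 7 was called, where 0.0886% of all genes kept were. At that share none among 7 genes is the usual outcome, so nothing is read from this count. Pard3b, whose protein belongs to a family that organises cell polarity, has Pard3bos3 within it and had means of 6.53, 7.52 and 7.78 CPM at 8, 10 and 12 weeks. Its log2 fold change was 0.28 ± 0.20 (SE; adjusted p = 0.549 in edgeR), and its log2 CPM correlated with that of Pard3bos3 at 0.41 over the 12 livers and at 0.13 without the age means. On either side of Pard3b, Icos, a costimulatory receptor of T cells, had -0.15 (adjusted p = 0.873) and Nrp2, a receptor for semaphorins and vascular growth factors, 0.20 (adjusted p = 0.752) in the same fit. The neighbours of the facing genes are far off: Gadd45g, a growth arrest and stress gene, lies 332 kilobases from Gm48199 and had a log2 fold change of -0.39 (adjusted p = 0.771), and Syk, a kinase of immune receptors, lies 394 kilobases from Gm61393 and had 0.04 (adjusted p = 0.968).

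Both neighbours of Tpte had lower mean levels in the older livers. Slc25a15, which carries ornithine into mitochondria for the urea cycle, lies 4.08 kilobases beyond the end of Tpte on the opposite strand. Its means were 574, 499 and 358 CPM at 8, 10 and 12 weeks. The 12-week libraries were all below the 8-week ones, as was the case for 3.95% of the genes kept. The log2 fold change of -0.66 (standard error 0.13) did not pass edgeR's test (adjusted p = 0.0649). Over the 20 settings tried the adjusted p reached from 0.000807 to 0.172 and was under 0.05 in 5, with log2 fold changes from -0.77 to -0.55 throughout. Thsd1, known from endothelial cells, lies 20.5 kilobases before Tpte and had means of 4.98, 3.72 and 3.07 CPM, with overlap between ages and a log2 fold change of -0.66 ± 0.18 (SE; adjusted p = 0.123 in edgeR, and 0.0228 to 0.313 over the alternatives).

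The genes most like each of the 4 were found by the Pearson correlation of log2 CPM over the 12 livers, given first as it is and then without the age means. They are the highest of a search through the 14672 genes kept in liver. High values therefore come with the search, also without the age means, and are not read as a link between the genes. For Pard3bos3 they rest on 2 to 44 pairs a library. After each other, Gm61393 was closest to Atp10a (0.90 and 0.62) and Sparc (0.89 and 0.61), and Gm48199 to Rab40b (0.90 and 0.83) and Nrbp2 (0.89 and 0.66). Atp10a codes for a phospholipid flippase and Sparc for a matrix protein. For Tpte the closest was Gm57111, a long noncoding RNA gene at chr1:67141428-67155731, at 0.94 and 0.92, followed by Kbtbd3 (0.89 and 0.44) and Katnip (0.89 and 0.51). Gm57111 averaged 28.5, 17.1 and 11.3 CPM at 8, 10 and 12 weeks and, unlike Tpte, had a count of 0 in all 24 kidney and heart libraries. Pard3bos3 was closest to Arpc2, a subunit of the actin-nucleating Arp2/3 complex (0.94 and 0.78), to Tle5, a corepressor (0.94 and 0.84), and to Alg14, an enzyme of N-glycan assembly (0.93 and 0.83). Their own log2 fold changes at 12 against 8 weeks were 0.21, 0.33 and 0.43.

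Genes related to the 4 by family or function were counted beside them in liver at 12 against 8 weeks, and no gene of the lists below passed edgeR's test. All 15 genes of the cell polarity complexes, among them Pard3b, were kept, with 8 higher, 7 lower and a median of 0.02. Of 10 genes of testis germ cells, 7 had a count of 0 in every liver library, and only Sycp3, a protein of the meiotic chromosome axis, was kept (0.654, 0.483 and 0.436 CPM, log2 fold change -0.55, adjusted p = 0.546). Tpte was therefore detected in livers in which these germ cell genes were mostly absent. The 13 well known long noncoding RNA genes were all kept, with 10 higher, 3 lower and a median of 0.20.

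Marker genes of the cell types of the liver were set beside these results. The summed level of 5 hepatocyte genes ranged from 95563 to 113559 CPM at 8 weeks, 73189 to 88339 at 10 weeks and 87803 to 108744 at 12 weeks. The 5 genes of stellate cells and fibroblasts all had lower values at 12 than at 8 weeks, with a median of -0.53 on the log2 scale and sums of 160 to 327, 215 to 272 and 136 to 218 CPM at the 3 ages. The same held for the 5 endothelial genes (median -0.51, sums of 94.8 to 191, 183 to 198 and 80.1 to 115 CPM) and the 5 genes of Kupffer cells and macrophages (median -0.40, sums of 89.9 to 220, 252 to 368 and 131 to 147 CPM). Of the 5 pericentral hepatocyte genes 4 had higher values at 12 weeks (median 0.19), with sums of 8598 to 9874, 7453 to 10688 and 10818 to 12386 CPM. Cyp2e1 held most of these sums, with means of 7358 CPM at 8 weeks and 8945 CPM at 12 weeks. On the log2 scale Oat had 0.56, Glul 0.19, Axin2 0.09 and Slc1a2 -0.27. Of the 5 periportal genes 4 had lower values (median -0.22), with sums of 5437 to 6675, 4539 to 6347 and 4655 to 6152 CPM. The cholangiocyte genes summed to between 3.78 and 10.7 CPM in all livers, and those of T and NK cells, of which none was kept, to at most 1.37 CPM. No gene of these lists passed the test on its own. The part of cell composition in the liver values was not tested.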

How the data were processed

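RNA-seq counts from 36 libraries of heart, kidney and liver were used. Per the methods and labels, the authors checked reads with FastQC 0.11.9, trimmed them with cutadapt 4.2 and aligned them with STAR 2.7.11b to GRCm39 with the Ensembl annotation. The deposited counts are whole read pairs per gene without normalization, and the column without strand was used, since 49.8% to 50.2% of stranded counts fell on the first strand. The sum of the strand columns differed from it by 1 pair for Pard3bos3 and by none for the other 3 genes. Gene names, types and exons came from GENCODE M39, a later release on the same build, to which 78168 of 78239 identifiers matched.

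Libraries were grouped by the labelled tissue and age. Within a tissue, genes with a count above 0 in at least 2 samples and a mean count of at least 10 in some age group were kept. Counts were scaled with TMM, modelled with a mean per age and tested with edgeR 4.0.16 (glmQLFit and glmQLFTest) in R 4.3.3, with Benjamini-Hochberg adjustment over all genes kept. Genes were called at an adjusted p below 0.05 when they differed by more than 1 on the log2 scale. Intervals of fold changes are 1.96 standard errors. Heart was compared with kidney in a joint fit of the 24 libraries. The common coefficient of variation was 0.206 in liver, 0.118 in heart and 0.113 in kidney. At 21031599 to 33637390 pairs a count of 3 equals 0.0892 to 0.143 CPM in a single library. Correlations used log2 CPM with a prior count of 2.

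Alternatives were limma-voom (limma 3.58.1), DESeq2 1.42.0, RLE factors, no filter, filterByExpr, the summed strand columns, a replicate block and each library left out in turn. The edgeR code was tested on simulated data. The genes named are the 4, their nearest or overlapping protein-coding genes and the 3 most correlated genes of each; some items are not reported here. The genes and lists were chosen with earlier results of these data known. Metabolite and microbiome data were not analysed here.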

Additional observations from a re-analysis of the deposited data

Results flagged for a closer look

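In 3 of the 21 groups of 4 libraries in which a value of the 4 genes could be tested, a single library stood far from the other 3. All 3 are heart groups of Tpte in which 3 libraries had a count of 0. Chance gives about 1 in 20 such cases where values vary freely, but with 3 libraries at 0 any pair in the fourth sets it apart, so that rate does not apply here. They are replicate 4 at 8 weeks with 0.0388 CPM (1 pair), replicate 1 at 10 weeks with 0.0734 CPM (2 pairs) and replicate 2 at 12 weeks with 0.249 CPM (7 pairs). The first 2 values are below the floor of 3 counts. In the library with 7 pairs, the summed kidney markers were at 0.747 CPM and the summed hepatocyte markers at 0.747 CPM, within the ranges of the 12 heart libraries, 0.0405 to 1.47 and 0.101 to 22.3 CPM. The heart libraries with the highest hepatocyte sums, replicates 2 and 4 at 10 weeks with 16.3 and 22.3 CPM, had no pair on Tpte. The source of these pairs was not tested.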

How the results depend on the processing

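In liver, the log2 fold changes at 12 against 8 weeks kept their direction in all alternatives and ranged, with each library left out, from -3.32 to -2.88 for Gm61393, -2.99 to -2.38 for Gm48199, -1.89 to -1.59 for Tpte and 2.34 to 3.14 for Pard3bos3. Whether all 4 pass the threshold depends on single libraries: the number called was 0 to 4 with a library left out, namely 2 without replicate 1, 0 without replicate 2 and 1 without replicate 3 at 8 weeks, 2 without replicate 1 or 4 at 10 weeks, and 0 without replicate 1, 2 or 3 at 12 weeks. It was 2 with limma-voom and 3 with the replicate block. At 10 against 8 weeks DESeq2 called 3 and the fit without a filter 4, and at 12 against 10 weeks they called 1 and 2, where edgeR's test called none. The 4 long noncoding RNA genes called at 12 against 8 weeks became 1 with limma-voom, 29 with DESeq2, 29 without a filter, 2 with the replicate block and 0 to 6 with a library left out. Between heart and kidney 1 or 2 genes were called, since Pard3bos3, whose mean count in the 12-week kidneys is 10, missed the filter without replicate 3 or 4 of that group. Values near 0 changed sign: Syk had -0.0074 with limma-voom and -0.27 to 0.17 with a library left out, Icos -0.40 to 0.0052, and Tpte in kidney -0.18 to 0.084 at 12 against 8 weeks, -0.10 to 0.22 at 10 against 8 weeks and -0.26 to 0.034 at 12 against 10 weeks, and none of these passed the threshold. The cause of these differences was not tested. Replicate numbers were not taken as pairs between ages, as each mouse was killed at 1 age. Of 36 same-numbered pairs between ages 7 had a correlation over 0.1, and 10 of 36 libraries correlated best with their own number. Between heart and kidney this held for 7 of 12 pairs and 10 of 12 libraries, and over all pairs of tissues 29 of 36 libraries did so. The labels do not say whether same-numbered tissues came from 1 mouse. The main fit of heart and kidney took its libraries as separate. The replicate block also called 2 genes, but both entered that fit through their kidney counts alone, so nothing is read from this count. Few pairs stand behind Pard3bos3 at 8 weeks in liver (2 to 6 a library) and in kidney (4 to 12), Gm61393 at 12 weeks in liver (8 or 9) and Tpte in heart (0 to 7), whose log2 fold change against kidney ranged from -5.98 to -4.45 with a library left out.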
